A study of Mus musculus with 7 samples.

Results

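A set of 10 genes of retinoic acid synthesis, clearance and response were followed in the retinal pigment epithelium (RPE) of aged mice with and without LC3b. The genes were chosen by name for their roles, with earlier results of these data already known, and all 10 of them are among the 52740 genes of the count table. All 10 also passed the filter on low counts that left 16990 genes for testing. They are Aldh1a1, Aldh1a2 and Aldh1a3 (synthesis), Crabp1 and Crabp2 (binding), Rarb (a receptor and target), Cyp26a1 and Cyp26b1 (clearance), Dhrs3 (reduction of retinal) and Retsat (saturation of retinol).

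RNA sequencing was done on RPE released with enzymes from the eyes of 24-month-old mice, with 1 library per mouse. There were 4 WT mice, of which 1 was male, and 3 LC3b-/- mice, of which 1 was male. LC3b, encoded by Map1lc3b, is an autophagy protein that also takes part in the breakdown of the outer segments that RPE cells engulf. Per the study's methods the LC3b-/- mice are the strain B6;129P2-Map1Lc3b tm1Mrab/J, and the WT mice are C57BL6/J, so strain background and the loss of LC3b cannot be told apart. A group number in the names of the mice is never shared by WT and LC3b-/- mice, so it cannot be told apart from genotype either. Among the LC3b-/- mice the females share a group number and the male has another, so there it cannot be told apart from sex. Libraries are named by the codes of the mice, with F for a female and M for a male. The WT females are F1, F2 and F3 and the WT male is M1, while the LC3b-/- females are F1 and F3 and the LC3b-/- male is M. Values of females are given below in that order.

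Retinoic acid is made from vitamin A by oxidation of retinol to retinal and of retinal to retinoic acid, the last step by the retinal dehydrogenases of the Aldh1a family. It is carried by the Crabp proteins, binds nuclear receptors (RAR, paired with RXR) that sit on response elements in DNA, and is broken down by the Cyp26 enzymes. RPE is a tissue of heavy retinoid traffic, since it stores retinyl esters and regenerates the chromophore of the visual pigments. Rarb and Cyp26a1 are textbook targets, induced through a direct repeat in their promoters.

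The promoters of Rarb and Cyp26a1 are shown because they hold that repeat. Whether either gene responds to retinoic acid in RPE was not tested. Both stretches are the 80 bases just before the RefSeq transcription start, on build GRCm38.p6, written 5′ to 3′ along the gene. The Rarb stretch is chr14:16575477-16575556 on the minus strand of that build, and the Cyp26a1 stretch is chr19:37697728-37697807 on the plus strand. Capitals mark the direct repeat, read along the gene in Rarb and on the opposite strand in Cyp26a1.
Rarb: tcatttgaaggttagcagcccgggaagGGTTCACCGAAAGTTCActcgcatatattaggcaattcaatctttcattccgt
Cyp26a1: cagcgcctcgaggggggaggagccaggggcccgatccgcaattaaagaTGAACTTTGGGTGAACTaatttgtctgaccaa

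The search was for 2 copies of the half-site NGNTCA, with 5 or with 2 bases between them, on both strands of the 250 bases before and the 50 bases after each start. With 5 bases between the copies, the repeat was in 283 of 32851 promoters of the table (0.861%), and with 2 bases in 366 (1.11%). In a stricter form, where each copy is AGGTCA or GGTTCA or AGTTCA, the repeat with 5 bases was in 20 promoters (0.0609%) and that with 2 bases in 69 (0.21%). In Rarb it lies from 53 to 37 bases before the start and in Cyp26a1 from 32 to 16 bases before it, in both cases in the strict form. The other promoters of members in the table (Aldh1a1, Aldh1a2, Crabp1, Cyp26b1, Dhrs3 and Retsat, of 8 members with 11 promoters) had neither spacing in this window. Aldh1a3 and Crabp2 have no entry in the table.

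The libraries held 24495952 to 34819720 counts in WT and 26704461 to 35616134 in LC3b-/- mice. Map1lc3b was lower in LC3b-/- RPE by a log2 fold change of -3.98 (SE 0.15, edgeR adjusted p = 0.000186), in the direction its labels give. All 12 RPE markers were detected, led by Ttr, Rgr and Rlbp1, but their summed level was lower in every LC3b-/- library (14543 to 29113 CPM, counts scaled to a common library size) than in any WT library (31441 to 48383 CPM). That sum rests mainly on the 3 leading genes. Of the 12 markers, 11 were lower on average and 1 higher, and 5 of the lower ones had an unadjusted p under 0.05 in edgeR. In the opposite direction, the 14 markers of ocular surface epithelium, led by Krt5, Krt15 and Aldh3a1, summed to 131 to 3352 CPM in WT and 3710 to 28247 CPM in LC3b-/- libraries. All 14 were higher on average and 9 had an unadjusted p under 0.05 in edgeR, but none was called after adjustment. None was at 0 in every library. Krt12 had 0.0878 to 786 CPM in WT and 2.41 to 2313 CPM in LC3b-/- libraries. Psca had 0 to 1.54 CPM in WT and 0.0295 to 68.5 CPM in LC3b-/- libraries, so the groups overlapped for both genes. The methods state that the cornea was cut away before the RPE was released. Endothelial markers were also apart (445 to 1392 CPM in WT and 1569 to 1893 CPM in LC3b-/-). So were 3 lists whose sums were lower in LC3b-/- libraries, those of ciliary and iris epithelium (914 to 1278 and 680 to 874 CPM), inner retinal neurons (444 to 551 and 312 to 405 CPM) and lens (19.0 to 22.6 and 11.9 to 16.7 CPM). The first of these sums rests mainly on Slc4a5 and the second on Slc6a9. Of the tested ciliary and iris genes 3 were higher and 3 lower on average, and of the neuronal genes 5 were higher and 3 lower. Only 3 of the 12 lens markers were tested, all of them lower. In bulk libraries of this kind, fewer cells of a type and less RNA per cell cannot be told apart.

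The clearest differences among the 10 genes were in Aldh1a3 and Crabp2, higher in every LC3b-/- library, and in Retsat and Dhrs3, lower in every LC3b-/- library. The other 6 genes, the response genes Rarb and Cyp26a1 among them, had groups that overlapped. In edgeR's quasi-likelihood test over all genes, with Benjamini-Hochberg adjustment, 0 of 10 were called (adjusted p under 0.05 with at least a 1.5-fold difference), where 0.235% of all genes tested were called. At an unadjusted p under 0.05, 2 were higher (background 13.5% of all genes) and 2 were lower (background 10.6%). The groups did not overlap in the same 4 genes, 2 higher (12% of all genes) and 2 lower (10.3% of all genes). DESeq2 called 3 of 10, Aldh1a3, Crabp2 and Retsat, where it called 9.8% of the genes to which it gave an adjusted p. The median log2 fold change of the 10 genes was 0.22, beside 0.01 over all genes tested.

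**Figure D1:**
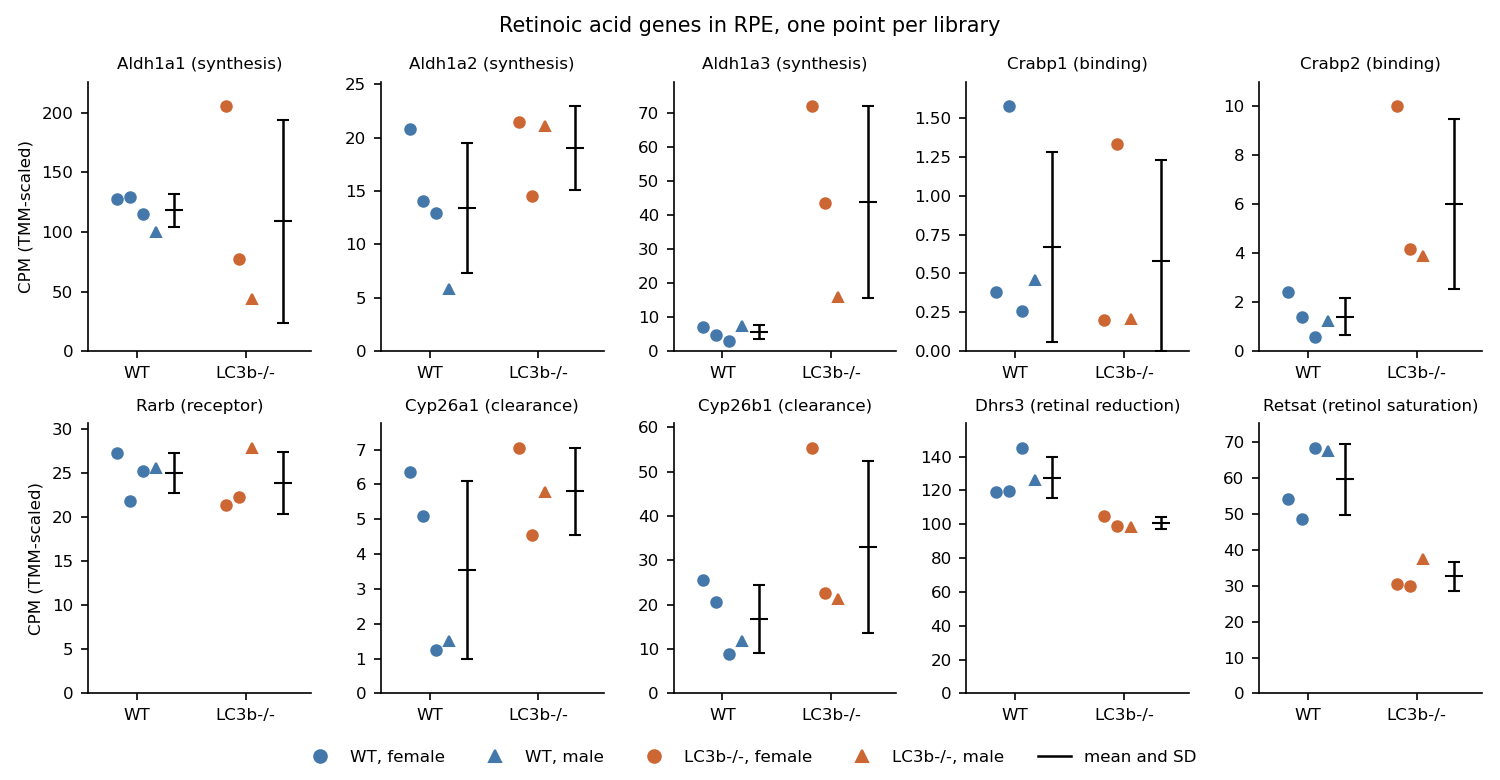
TMM-scaled CPM (vertical axes, from 0) of the 10 genes in each of 4 WT and 3 LC3b-/- libraries, circles for females and triangles for males, with the mean and SD of each group beside the points; the lower SD bar of Crabp1 in LC3b-/- mice stops at 0. The 3 LC3b-/- libraries lie above all WT libraries for Aldh1a3 and Crabp2 and below all of them for Dhrs3 and Retsat.

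Aldh1a3 (chr7:66040638-66077850, minus strand, GRCm39) encodes a retinal dehydrogenase. It had 7.29, 4.89 and 3.07 CPM in the WT females and 7.53 CPM in the WT male, against 72.1 and 43.6 CPM in the LC3b-/- females and 15.9 CPM in the LC3b-/- male. The lowest LC3b-/- library, the male, was about double the highest WT library, and the LC3b-/- libraries were spread widely among themselves. The group means were 5.70 ± 2.12 CPM (SD, n = 4) and 43.9 ± 28.1 CPM (SD, n = 3), a log2 fold change of 2.94 (SE 0.52) or 7.68-fold, with an unadjusted p of 0.000633 and an adjusted p of 0.0840 in edgeR. Its rank by p was 128 of 16990. Over the 7 fits that leave out 1 library each, the log2 fold change ran from 2.38 (without LC3b-/- F1) to 3.34 (without LC3b-/- M), where the edgeR adjusted p was 0.222 and 0.0234. DESeq2 gave an adjusted p of 1.21e-06, the smallest over all alternatives, of which the fit without LC3b-/- F1 gave the largest.

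Aldh1a1 (chr19:20469539-20622825, plus strand) encodes the retinal dehydrogenase that was, per kilobase, the most abundant of the 3 in WT RPE. Its level was 128, 129.5 and 115 CPM in the WT females and 100.1 CPM in the WT male, against 205 and 77.2 CPM in the LC3b-/- females and 44.0 CPM in the LC3b-/- male. The WT libraries were close together, while LC3b-/- libraries lay on both sides of them, 1 above and 2 below. The log2 fold change was -0.12 (SE 0.46, edgeR adjusted p = 0.901). Without LC3b-/- F1 it was -0.96 with an unadjusted p of 0.00685 and an adjusted p of 0.257, and without LC3b-/- M it was 0.26. The adjusted p was 0.257 to 0.954 over the alternatives. Aldh1a1 was the only member with a near copy, Aldh1a7 (88.9% identical over 2081 aligned bases), and with the counts of both genes summed its log2 fold change was -0.10.

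Aldh1a2 (chr9:71122630-71203527, plus strand), the remaining retinal dehydrogenase, had 20.8, 14.1 and 12.9 CPM in the WT females and 5.84 CPM in the WT male. The LC3b-/- females had 21.5 and 14.5 CPM and the LC3b-/- male 21.1 CPM. The groups overlapped, with the WT male lowest of all. Its log2 fold change was 0.50 (SE 0.38, edgeR adjusted p = 0.446). It was 0.25 without WT M1, 0.80 without WT F1, 0.17 with females only and 0.11 with the mouse code as a replicate block.

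On a scale of CPM per kilobase of the canonical transcript, the make-up of the 3 dehydrogenase mRNAs differed between the groups in every library. Aldh1a3 made up 3.17% to 9.28% of their sum in WT and 20.9% to 37.8% in LC3b-/- RPE. Aldh1a1 made up 68.4% to 80.01% in WT and 37.7% to 56.2% in LC3b-/- RPE, and the share of Aldh1a2 overlapped (10.7% to 25.6%, and 13.5% to 41.4%). The sum itself overlapped, with 20.2 to 30.1 CPM per kilobase in WT and 18.8 to 59.0 in LC3b-/- libraries. These shares restate the values above on another scale and were not tested, and they depend on the lengths used, among which that of Aldh1a1 is long (6202 bases).

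**Figure D2:**
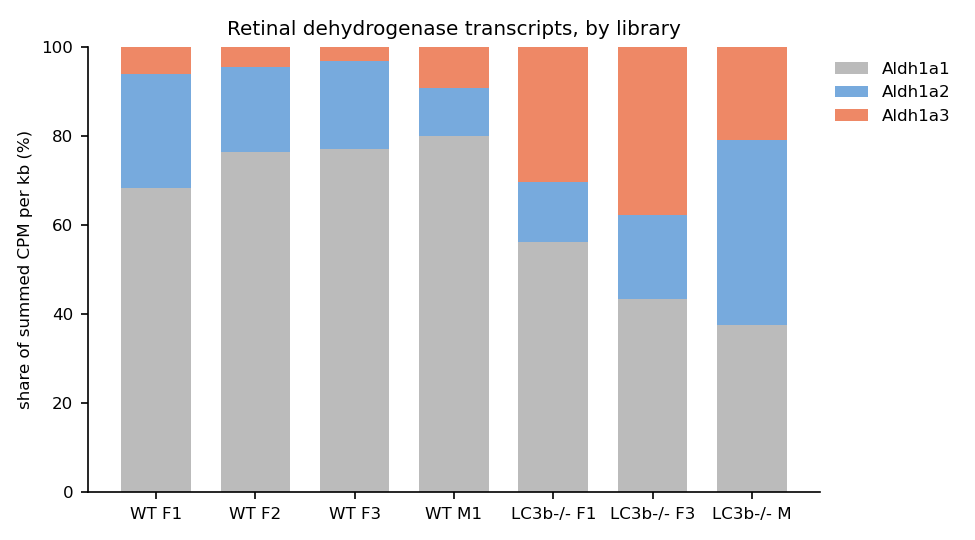
Share (percent, vertical axis) of Aldh1a1, Aldh1a2 and Aldh1a3 in their summed CPM per kilobase, with 1 stacked bar for each of the 7 libraries. The Aldh1a3 share is at most 9.28% in the 4 WT bars and at least 20.9% in the 3 LC3b-/- bars.

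Crabp2 (chr3:87855973-87860683, plus strand) encodes the cellular binding protein that hands retinoic acid to its nuclear receptors. It was scarce, with 2.43, 1.41 and 0.599 CPM in the WT females and 1.23 CPM in the WT male, against 9.99 and 4.16 CPM in the LC3b-/- females and 3.87 CPM in the LC3b-/- male. These levels rest on 16 to 83 counts per WT library and 131 to 248 per LC3b-/- library, and the groups did not overlap. The log2 fold change was 2.07 (SE 0.53) or 4.21-fold, with an unadjusted p of 0.00527 and an adjusted p of 0.1005 in edgeR, and an adjusted p of 0.00339 in DESeq2. Leaving out 1 library at a time gave 1.49 (without LC3b-/- F1) to 2.47 (without WT F1), with an unadjusted p of at most 0.0251 and an adjusted p of 0.0647 to 0.319 in edgeR.

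Crabp1 (chr9:54671171-54680403, plus strand), the related binding protein, was close to the limit of detection with 5 to 53 counts per library. It had 0.380, 1.57 and 0.262 CPM in the WT females and 0.461 CPM in the WT male, against 0.201 and 1.33 CPM in the LC3b-/- females and 0.207 CPM in the LC3b-/- male. Its 2 highest libraries were 1 of each genotype, and the log2 fold change was -0.17 (SE 0.91, edgeR adjusted p = 0.926). The spread among libraries of the same genotype was thus far larger than the difference between genotypes. Those libraries, WT F2 and LC3b-/- F3, also had the highest summed photoreceptor markers of their groups, at 21498 and 7324 CPM, although WT F3 had 9243 CPM with a low Crabp1 level. The part of photoreceptor RNA in the Crabp1 values was not tested.

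Rarb, a retinoic acid receptor whose promoter is printed above, lies at chr14:5650540-6041094 on the plus strand of GRCm39. It was the steadiest of the 10 genes across all libraries, with 27.3, 21.9 and 25.2 CPM in the WT females and 25.6 CPM in the WT male, against 21.3 and 22.3 CPM in the LC3b-/- females and 27.9 CPM in the LC3b-/- male. The groups overlapped fully, and the highest and the lowest library were both LC3b-/-. The log2 fold change was -0.07 (SE 0.14, edgeR adjusted p = 0.795), and it stayed between -0.20 and 0.0025 when any 1 library was left out.

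Cyp26a1 (chr19:37686241-37689984, plus strand), a retinoic acid hydroxylase and the other gene with the printed repeat, had 6.35, 5.10 and 1.24 CPM in the WT females and 1.499 CPM in the WT male. The LC3b-/- females had 7.05 and 4.56 CPM and the LC3b-/- male 5.79 CPM. The WT libraries fell into a higher and a lower pair, and all 3 LC3b-/- libraries sat near the higher pair. This gave a log2 fold change of 0.71 (SE 0.59, edgeR adjusted p = 0.490). It was 0.41 without WT F3, 0.45 without WT M1 and 1.15 without WT F1, and voom gave 1.14 with an unadjusted p of 0.0721.

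Cyp26b1 (chr6:84548396-84570890, minus strand), the second hydroxylase, had 25.5, 20.7 and 8.99 CPM in the WT females and 11.9 CPM in the WT male, against 55.3 and 22.6 CPM in the LC3b-/- females and 21.2 CPM in the LC3b-/- male. Only LC3b-/- F1 lay above all WT libraries. Cyp26b1 had a log2 fold change of 0.98 (SE 0.46, unadjusted p = 0.0712, adjusted p = 0.245 in edgeR). Without LC3b-/- F1 it was 0.38.

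Retsat (chr6:72575458-72585996, plus strand) encodes retinol saturase, which turns retinol into dihydroretinol and so takes it off the path to retinal. It had 54.2, 48.6 and 68.4 CPM in the WT females and 67.5 CPM in the WT male, against 30.6 and 30.0 CPM in the LC3b-/- females and 37.4 CPM in the LC3b-/- male. Every LC3b-/- library was below every WT library. The means were 59.7 ± 9.84 CPM (SD, n = 4) and 32.7 ± 4.11 CPM (SD, n = 3), a log2 fold change of -0.87 (SE 0.16) or 1.83-fold lower, with an unadjusted p of 0.000878 and an adjusted p of 0.0842 in edgeR. Over the alternatives the adjusted p ran from 0.000490 in DESeq2 to 0.240 in edgeR without LC3b-/- F1, with 0.0494 without LC3b-/- M, and the log2 fold change stayed between -0.98 and -0.81 when any 1 library was left out.

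Dhrs3 (chr4:144619245-144654779, plus strand) encodes a reductase that returns retinal to retinol. It had 119, 119.9 and 145 CPM in the WT females and 126 CPM in the WT male, against 105 and 99.1 CPM in the LC3b-/- females and 98.4 CPM in the LC3b-/- male. The LC3b-/- libraries were tightly grouped below the WT libraries, with means of 127.5 ± 12.1 CPM (SD, n = 4) and 100.8 ± 3.53 CPM (SD, n = 3). The log2 fold change was -0.34 (SE 0.11), 1.27-fold lower, with an unadjusted p of 0.0182 and an adjusted p of 0.143 in edgeR, and lay below the fold threshold of 1.5. The adjusted p ran from 0.0664 with DESeq2 to 0.431 with the mouse code as a replicate block.

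**Figure D3:**
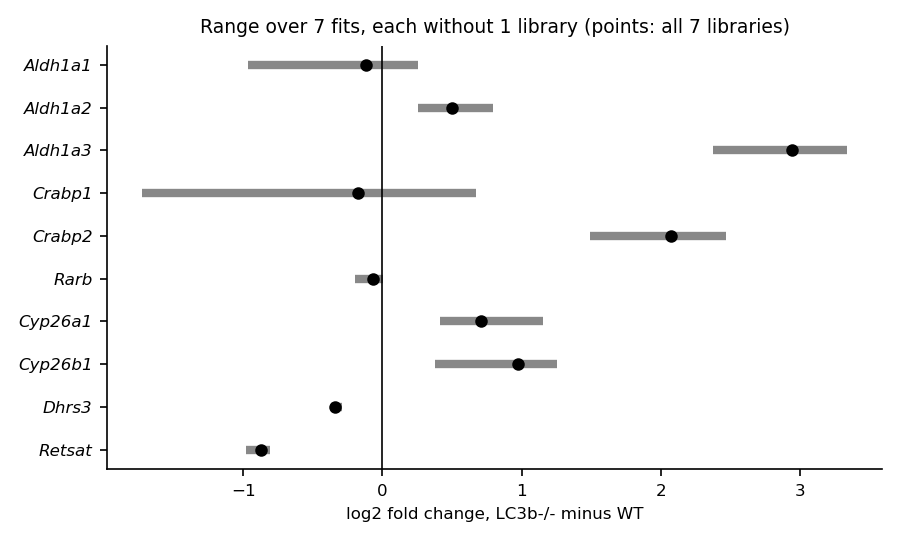
Log2 fold change of the 10 genes, LC3b-/- minus WT (horizontal axis), with all 7 libraries (points) and its range over 7 fits that leave out 1 library each (grey bars). The ranges of Aldh1a3 (2.38 to 3.34), Crabp2 (1.49 to 2.47), Dhrs3 (-0.37 to -0.29) and Retsat (-0.98 to -0.81) keep their sign, those of Aldh1a2, Cyp26a1 and Cyp26b1 also do, and those of Aldh1a1, Crabp1 and Rarb cross 0.

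Ordered by mean CPM per kilobase (SD over libraries), the WT levels ran from Dhrs3 (46.6 ± 4.42) through Aldh1a1 (19.0 ± 2.19), Retsat (16.5 ± 2.72), Rarb (7.36 ± 0.668), Aldh1a2 (4.96 ± 2.26) and Cyp26b1 (3.13 ± 1.43) to Cyp26a1 (1.97 ± 1.43), Crabp2 (1.52 ± 0.815), Aldh1a3 (1.41 ± 0.526) and Crabp1 (0.826 ± 0.751). The ranges over libraries overlapped for Aldh1a1 and Retsat, and for each pair of neighbours from Rarb downwards. Within every WT library, though, Rarb was above Aldh1a2 and Cyp26b1 was above Cyp26a1. In LC3b-/- RPE Dhrs3 was still the highest (36.8 ± 1.29), and the mean of Aldh1a3 (10.9 ± 6.98) stood between those of Aldh1a1 (17.6 ± 13.7) and Retsat (9.03 ± 1.14). The ranges of those 3 overlapped, although Aldh1a1 was above Aldh1a3 within every LC3b-/- library.

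Aldh1a3, Crabp2 and Retsat moved with the marker lists. From lowest to highest, the 7 libraries stood in the same order for Aldh1a3 as for the summed ocular surface markers, and for Crabp2 also, apart from WT M1. Retsat was lowest in the same pair of LC3b-/- libraries, F1 and F3, in which the RPE markers were lowest. One pair of libraries had nearly equal sums of ocular surface markers, WT M1 with 3352 CPM and LC3b-/- M with 3710 CPM. In that pair, Aldh1a3 was 7.53 and 15.9 CPM, Crabp2 was 1.23 and 3.87 CPM, and Retsat was 67.5 and 37.4 CPM. The pair was not alike in RPE markers, which summed to 48383 CPM in WT M1 and 29113 CPM in LC3b-/- M. Nor was it alike in each ocular surface marker. Krt15 was at most 341 CPM in any WT library and at least 1160 CPM in any LC3b-/- library. Krt5 was apart too (at most 1021 and at least 1257 CPM), while Aldh3a1 overlapped (3.59 to 787 and 145 to 2459 CPM). Between genotypes, the nearest pair in RPE marker level was LC3b-/- M with 29113 CPM and WT F2 with 31441 CPM, with Aldh1a3 at 15.9 and 4.89 CPM and Retsat at 37.4 and 48.6 CPM. That pair in turn was not alike in ocular surface markers, with 3710 CPM in LC3b-/- M and 786 CPM in WT F2. These pairs are 1 library against 1 and carry no test. The part of ocular surface epithelium, endothelium, RPE and the other cell types listed above in the differences of Aldh1a3, Crabp2, Retsat and Dhrs3 was not tested.

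**Figure D4:**
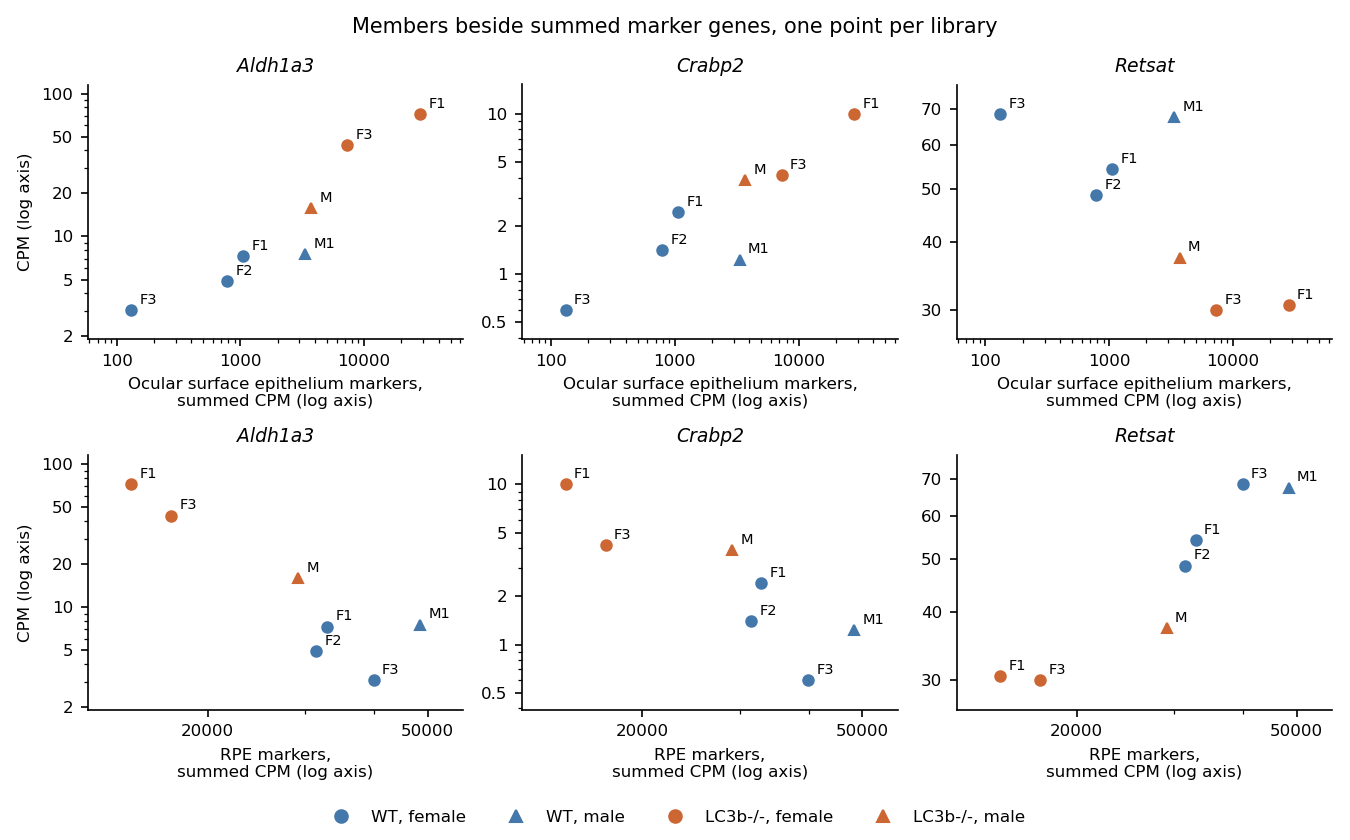
CPM of Aldh1a3, Crabp2 and Retsat (vertical axes, log scale) against the summed CPM of 14 ocular surface epithelium markers (upper row) and 12 RPE markers (lower row; horizontal axes, log scale), 1 point per library, circles for females and triangles for males. WT M1 (3352 CPM) and LC3b-/- M (3710 CPM) lie side by side in the upper row, with Aldh1a3 at 7.53 and 15.9 CPM.

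The genes whose log2 CPM followed Aldh1a3 most closely over the 7 libraries were Krt80 (an epithelial keratin), Lmo7, Serpinb8, Gda and Anxa2, with Pearson correlations of 0.993 to 0.9995. Krt80 had mean levels of 5.39 CPM in WT and 89.3 CPM in LC3b-/- RPE. Correlations above 0.9 with Aldh1a3 were found for 845 genes (4.97% of those tested). For Retsat the closest were Vma21, Fam120b, Ccnh, D3Ertd751e and Dnajc30, with correlations of 0.992 to 0.997, and 1039 genes (6.12%) were above 0.9. These are descriptions over libraries that share genotype, depth and tissue make-up.

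The wider set of retinoid genes held 66 genes besides these 10, of which 56 passed the filter on low counts. In edgeR 0 of the 56 were called, while 17 were higher and 9 lower at an unadjusted p under 0.05, beside the 13.5% and 10.6% of all genes given above. DESeq2 called 14, where it called 9.8% of all genes with an adjusted p. Their median log2 fold change was 0.16. The count of 26 at an unadjusted p under 0.05 was 13 without LC3b-/- F1 and 16 without LC3b-/- F3.

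Among 8 genes of retinol uptake, binding and storage, 3 were higher and 3 lower at an unadjusted p under 0.05 (13.5% and 10.6% of all genes). Stra6l, which encodes a relative of the retinol-binding protein receptor, had 0.225 to 0.615 CPM in WT and 2.34 to 3.37 CPM in LC3b-/- libraries (log2 fold change 2.68, SE 0.40, edgeR adjusted p = 0.0580). Rbp2, a cellular retinol-binding protein best known from the gut, had 0.300 to 9.38 CPM in WT and 17.8 to 155 CPM in LC3b-/- libraries (log2 fold change 4.04, SE 1.11, edgeR adjusted p = 0.107). Rbp7, another cellular retinol-binding protein, was near the floor in WT with 0 to 4 counts against 15 to 26 counts. In the other direction, Lrat, which makes retinyl esters for storage, was 3.00-fold lower (log2 fold change -1.58, SE 0.42, edgeR adjusted p = 0.103). Lrat is also one of the 12 RPE markers.

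Among 15 tested genes of retinol and retinal interconversion, 2 were higher, a share near that of all genes (13.5%), and 5 lower (10.6% of all genes) at an unadjusted p under 0.05. Both higher genes encode enzymes that can oxidize retinol, and so does Rdh5, which is among the lower genes. Rdh16 had 0.0749 to 0.497 CPM in WT and 1.18 to 11.1 CPM in LC3b-/- libraries (log2 fold change 4.27, SE 0.91, edgeR adjusted p = 0.0906). Adh1 had 5.80 to 76.3 CPM in WT and 103 to 637 CPM in LC3b-/- libraries (log2 fold change 2.86, SE 0.87, edgeR adjusted p = 0.123). Adh1, and Rbp2 likewise, ordered the 7 libraries exactly as the summed ocular surface markers did (131 to 3352 CPM in WT and 3710 to 28247 CPM in LC3b-/-), and their part in these values was not tested. Rdh5, the 11-cis retinol dehydrogenase of the visual cycle and an RPE marker, was far more abundant than Rdh16 and Adh1. It had 1937 to 3094 CPM in WT and 839 to 1621 CPM in LC3b-/- libraries (log2 fold change -1.10, SE 0.31, edgeR adjusted p = 0.110).

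The other receptors and carriers were 7 genes, of which 4 were higher and 0 lower at an unadjusted p under 0.05 (13.5% and 10.6% of all genes). Rarg, the RAR best known from skin and other stratified epithelia, had 35.1, 26.4 and 15.4 CPM in the WT females and 25.9 CPM in the WT male, against 116 and 54.9 CPM in the LC3b-/- females and 44.8 CPM in the LC3b-/- male. Its groups did not overlap, with a log2 fold change of 1.48 (SE 0.38, edgeR adjusted p = 0.101). Apart from WT M1, Rarg also ordered the libraries as the ocular surface markers did, whose part was not tested. Rara gave 0.52 (SE 0.28, edgeR adjusted p = 0.292) and Rarb, as above, -0.07 (SE 0.14). Of the 3 RAR genes Rarg alone had an unadjusted p under 0.05. The groups of Rara did not overlap either, with 8.38 to 18.6 CPM in WT and 18.7 to 22.9 CPM in LC3b-/- libraries. Among the 7 receptors and carriers, 5 had groups that did not overlap, all of them higher (12% of all genes). Differences between the RAR genes were not tested. Among the RXR partners, Rxra gave a log2 fold change of 0.41 (SE 0.16, unadjusted p = 0.0341), Rxrb -0.05 (SE 0.09, unadjusted p = 0.578) and Rxrg -0.00 (SE 0.29, unadjusted p = 0.994). Fabp5, which carries retinoic acid to Ppard, was 4.46-fold higher (log2 fold change 2.16, SE 0.43, edgeR adjusted p = 0.0898), and Ppard itself gave 0.44 (SE 0.13, edgeR adjusted p = 0.121). Fabp5 too ordered the libraries as the ocular surface markers did, except that LC3b-/- F3 and LC3b-/- M changed places. The part of those markers' cells was not tested.

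Of 14 tested genes known to be induced by retinoic acid in other cells, 6 were higher and 0 lower at an unadjusted p under 0.05 (13.5% and 10.6% of all genes). Tgm2, the tissue transglutaminase, had 68.2 to 207 CPM in WT and 272 to 358 CPM in LC3b-/- libraries (log2 fold change 1.27, SE 0.36, edgeR adjusted p = 0.109). Bhlhe40, a repressor that responds to many stimuli besides retinoic acid, gave 0.88 (SE 0.27, edgeR adjusted p = 0.127). Apart from WT M1, Tgm2 and Bhlhe40 ordered the libraries as the ocular surface markers did, except that LC3b-/- F3 and LC3b-/- M changed places. The part of ocular surface epithelium, endothelium and the other cell types in the values of these induced genes was not tested. Rarb and Cyp26a1, the members that hold the printed repeat, had unadjusted p values of 0.639 and 0.268. The 9 receptor coregulators gave 2 higher and 1 lower, beside the same 13.5% and 10.6%, and the 3 tested enzymes that can also make or break down retinoic acid gave 0 in either direction.

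**Figure D5:**
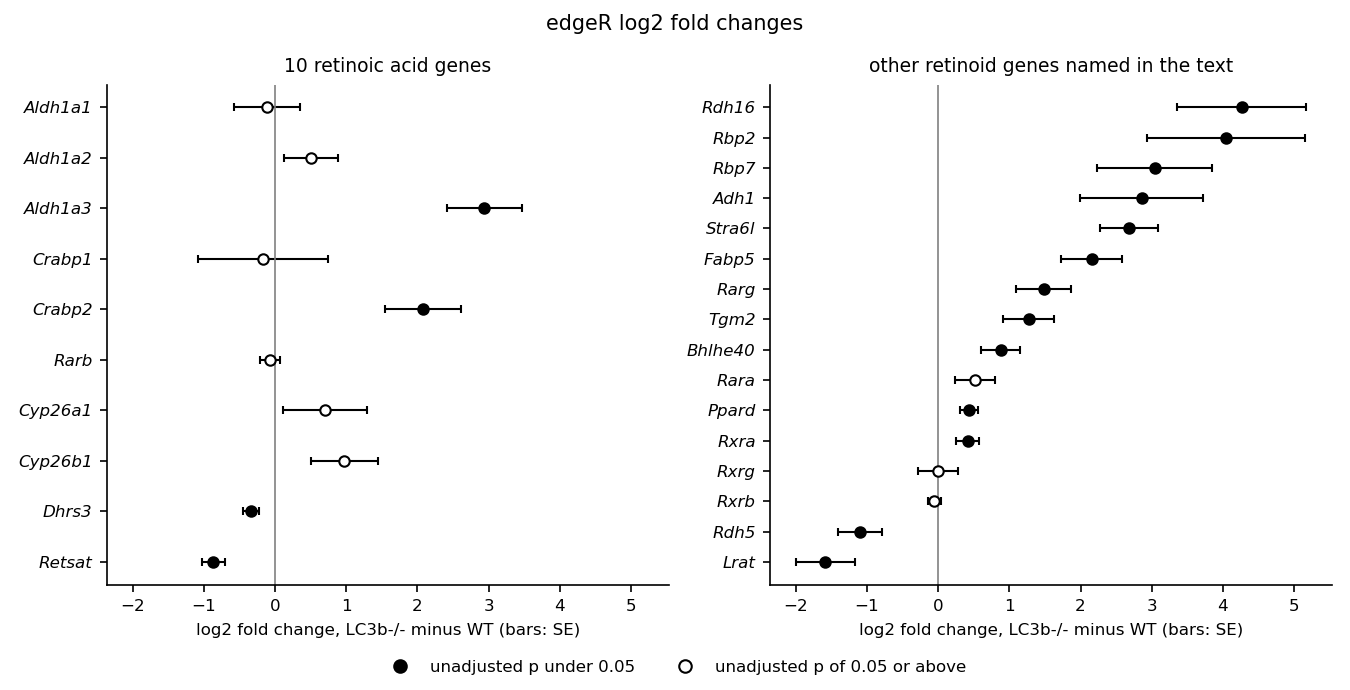
Log2 fold change with its SE (horizontal axes, LC3b-/- minus WT) of the 10 genes (left) and of the other retinoid genes named in the text (right), with filled points for an unadjusted p under 0.05 in edgeR. Aldh1a3 (2.94) and Crabp2 (2.07) lie to the right and Retsat (-0.87) and Dhrs3 (-0.34) to the left, while on the right panel Rdh16 (4.27) and Lrat (-1.58) are the extremes.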

How the data were processed

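RPE messenger RNA was compared between 4 WT and 3 LC3b-/- mice, grouped by the genotype labels, with 1 library per mouse. The authors made stranded libraries from polyadenylated RNA, quantified single reads of 100 bases with salmon against GENCODE transcripts on GRCm39, and deposited estimated counts per gene, summed with tximeta, rounded to whole numbers and not scaled. Any options of salmon are not given in the sources used here. Estimated counts share out reads between similar transcripts, which matters for Aldh1a1 and Aldh1a7. Symbols and coordinates came from a later GENCODE annotation of the same build, which held 51721 of 52740 identifiers.

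The analysis used edgeR 4.0.16 in R 4.3.3 (filterByExpr, TMM scaling, quasi-likelihood test of genotype without covariates, Benjamini-Hochberg adjustment over 16990 genes). A gene was called where its adjusted p was under 0.05 and the groups differed at least 1.5-fold. CPM are TMM-scaled, log2 CPM used a prior count of 2, and the biological coefficient of variation was 0.398. Depth was 24495952 to 35616134 counts per library, and counts limit the precision of genes near 1 CPM. The alternatives were DESeq2 1.42.0, voom of limma 3.58.1 with sample quality weights, other scaling and filters, sex as a covariate, females only, the mouse code as a replicate block, other fold thresholds, and each library left out. Near copies were sought by BLAST 2.17.0, with limits of 80% identity and 300 aligned bases. Promoters came from a RefSeq table on GRCm38.p6 and were searched in Python 3.11.15, and matplotlib 3.10.9 drew the figures. The test code was checked on simulated data.

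All members were named. Of the wider list, the text names each RAR and RXR gene and the 12 with the smallest unadjusted p; of each marker list, at most 3 genes by abundance, to which Krt12 and Psca were added after their values were seen; and for Aldh1a3 and Retsat, the members with the smallest p, the 5 genes most like them. The members, lists and tests were chosen with earlier results of these data known, so counts over them are descriptions.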

Additional observations from a re-analysis of the deposited data

Results flagged for a closer look

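Crabp1 in WT F2 stood apart from the other WT libraries, at 1.57 CPM where the others had 0.262 to 0.461 CPM. The gap to the nearest library was 0.848 of the whole range of the group, above Dixon's 95% critical value for 4 samples. All 10 genes were examined this way in WT, and chance alone passes this limit in about 1 of 20 groups.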

How the results depend on the processing

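Of 160 recomputed log2 fold changes of the 10 genes, 142 kept their direction and side of the threshold, 7 kept their direction and became called, and 11 reversed. The reversals were all in genes far from the threshold. Aldh1a1 turned to 0.19 with females only and to 0.057 with the replicate block, and ran from -0.96 to 0.26 when single libraries were left out. Crabp1 turned to 0.28 with voom, to 0.082 with females only and to 0.81 with the replicate block, and ran from -1.73 to 0.67 without single libraries. Rarb ran from -0.20 to 0.0025.

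The count of members called, 0 in edgeR, was 3 with DESeq2, 1 with sex as a covariate (Retsat), 1 with females only (Aldh1a3), and 0 to 2 without single libraries, the 2 being Aldh1a3 and Retsat without LC3b-/- M. The count at an unadjusted p under 0.05 stayed at 3 to 5, and 4 to 6 members had groups that did not overlap. For the wider retinoid genes, 0 calls became 14 with DESeq2, 1 with voom, 3 with sex as a covariate and 0 to 3 without single libraries (3 without LC3b-/- M, 1 without WT F1), and the 26 at an unadjusted p under 0.05 became 13 to 27 without single libraries and 21 to 30 under the other alternatives. Over all genes, 40 calls became 1831 with DESeq2, 124 with voom, 78 without a filter on low counts, 197 with sex as a covariate, 96 with females only, 0 with the replicate block, and 11 to 485 without single libraries. The cause was not tested. Scaling moved the median of all genes by less than 0.1.

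Both genotypes share only the codes F1 and F3, whose libraries' deviations correlated at 0.15 and 0.24, so the main fit did not treat them as pairs. The fit with the replicate block did. Its genotype effect rests on the F1 and F3 libraries alone, with little left to estimate the spread. Its fold changes and its lack of calls are therefore a weak guide to how far the results depend on the processing.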

Other observations

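Some of the 10 genes varied together in log2 CPM over the 7 libraries, given as a description without a test, since the libraries share genotype and tissue make-up. Aldh1a3 and Crabp2 had a Pearson correlation of 0.94, Crabp2 and Cyp26b1 of 0.92, and Cyp26a1 and Cyp26b1 of 0.88. Dhrs3 and Retsat had one of 0.91 with each other, and Retsat had -0.90 with both Aldh1a3 and Crabp2. Aldh1a1, Crabp1 and Rarb followed no other member closely, with highest correlations of 0.37, 0.08 and 0.48.

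The split of the 2 hydroxylases differed little between genotypes. On the scale of CPM per kilobase, Cyp26b1 made up 57.4% to 72.6% of their sum in WT and 55.1% to 72.4% in LC3b-/- RPE. Of the 2 binding proteins, Crabp2 made up 43.8% to 84.8% in WT and 73.2% to 97.7% in LC3b-/- RPE, with groups that overlapped.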
